A study of Homo sapiens with 15 samples.

Results

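The miR-148 and miR-152 family was followed through 14 small RNA libraries labelled as the human colorectal cancer line DiFi. Its 4 entries were taken by name from a deposited table of 1619 mature miRNAs: hsa-miR-148a-3p, hsa-miR-148b-3p, hsa-miR-152-3p and hsa-miR-148a-5p, written below without the species prefix. They were proposed with the values of all 14 libraries already known, so the adjusted p-values below describe these libraries and are no independent evidence. The study tried ways of culturing the cells to collect what carries secreted small RNA, among it supermeres, which are small nanoparticles without a membrane. The replicated libraries form 6 groups of 2, with 1 library labelled HF6 and 1 labelled HF7 in each: cell pellets, plate 1 cells, plate 2 cells, plate 3 cells, unfiltered HDM and filtered HDM. HDM media and regular media are single libraries, and the labels list DiFi for these as well. No genotype, drug or time is given for any group, and all libraries come from 1 cell line. HF and HDM are not spelled out, nor is it said whether HF6 and HF7 are separate cultures, so each p-value refers to the spread among these libraries alone, which may be technical. Filtered and unfiltered HDM with the same HF number may share a source. A medium without cells is also in the labels but was not analysed here, so no medium background could be given.

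A miRNA is cut from a hairpin precursor that can yield a mature strand from each arm, named 5p and 3p. The strand loaded into an Argonaute protein finds its target messenger RNAs mainly through bases 2 to 8, the seed. The 3p strands of this family share a seed and are known for repressing the DNA methyltransferases DNMT1 and DNMT3B, and miR-148a is abundant in digestive epithelium and often low in gastrointestinal tumours. The 5p strands are usually the scarcer arm.

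The mature strands are shown because the seed defines the family, and because the arms behaved differently in these libraries. Each is written 5′ to 3′ as DNA letters, as deposited, with the seed in capitals.
miR-148a-3p: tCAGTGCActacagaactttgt
miR-148b-3p: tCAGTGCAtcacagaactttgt
miR-152-3p: tCAGTGCAtgacagaacttgg
miR-148a-5p: aAAGTTCTgagacactccgact
miR-148b-5p: aAGTTCTGttatacactcaggc
The seed CAGTGCA was carried by 3 of the 1619 entries, which are the 3p members. Counted from 1 at the 5′ end, miR-148b-3p differs from miR-148a-3p by C9T and T10C, and miR-152-3p differs from miR-148a-3p by C9T, T10G and T20G over the 21 bases they share. The bases AGTGCA, at positions 3 to 8 of the family, stand at positions 2 to 7 of 4 other entries, miR-130b-3p, miR-301a-3p, miR-301b-3p and miR-454-3p. The 5p strands do not share the 3p seed, and no other entry had the seed of miR-148a-5p.

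The hairpins are shown with both mature arms in capitals, as RNA, from RefSeq on GRCh38.p14.
MIR148A: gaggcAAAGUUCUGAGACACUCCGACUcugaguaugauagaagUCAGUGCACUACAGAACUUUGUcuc
MIR148B: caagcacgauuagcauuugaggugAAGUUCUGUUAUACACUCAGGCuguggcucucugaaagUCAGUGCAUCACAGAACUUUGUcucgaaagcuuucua
RefSeq listed 3 of the 4 members as mature strands with the deposited sequence, and miR-148a-5p lies whole within its hairpin. On GRCh38, miR-148a-3p lies at chr7:25949922-25949943 and miR-148a-5p at chr7:25949960-25949981, both on the minus strand. No other gene of GENCODE release 29 overlaps them. miR-148b-3p lies at chr12:54337278-54337299 on the plus strand, in introns of COPZ1 and of the overlapping transcript gene AC078778.2. miR-152-3p lies at chr17:48037174-48037194 on the minus strand, in an intron of COPZ2. COPZ1 and COPZ2 encode paralogous subunits of the COPI vesicle coat, so the paralogous miRNAs sit in paralogous hosts.

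Library totals ran from 205738 to 4896917 counts, and the HF7 unfiltered HDM sample and the HF7 cell pellet, at 205738 and 313380, were far below the other 12, which had at least 1246482. A count of 0 allows up to 3 counts (95% level, for counting error alone, as the table gives no molecular tags). By library totals alone, without the scaling used for the levels below, this is 0.613 to 14.6 CPM across libraries. Of the identity markers, the 5 epithelial miR-200 family entries summed to between 131000 and 236300 CPM and the 3 intestinal entries (miR-192-5p, miR-194-5p and miR-215-5p) to between 72590 and 178600 CPM in the 12 replicated libraries. Both sums were lower in HDM than on plates without overlap, at 131000 to 145600 against 160500 to 188600 CPM for the epithelial and 72590 to 90070 against 120700 to 134900 CPM for the intestinal entries. Markers of other cells were near 0 for stroma (at most 1.41 CPM over the 2 listed of 4), liver (at most 0.840 CPM) and erythroid cells (at most 11.8 CPM). The endothelial marker miR-126-3p reached 144.5 CPM. Leukocyte markers summed to between 417.6 and 1779 CPM in the 12 replicated libraries. Over all 14 libraries, media included, miR-142-5p alone reached 1778 CPM, miR-150-5p 81.4 CPM and miR-223-3p 1.38 CPM. Muscle markers summed to between 4.14 and 108.4 CPM, highest in a pellet and carried by miR-1-3p. The part of other cells in the results below was not tested. Fewer cells and less RNA per cell cannot be told apart in bulk samples.

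The most abundant member was miR-148a-3p, with between 2504 and 49868 counts and a rank between 16 and 41 in the 14 libraries. All levels are CPM, that is counts relative to the library total after scaling by TMM factors (a trimmed mean over miRNAs that makes libraries comparable), and all members are 21 or 22 bases long. How well each sequence is captured was not measured, so levels of different members are compared as counts only. The 2 pellets held 12260 (HF6) and 16670 (HF7) CPM of miR-148a-3p. Plate 1 held 8896 and 7635, plate 2 held 6142 and 4230, and plate 3 held 8482 and 10170 CPM, HF6 before HF7. Unfiltered HDM held 9629 and 10360 CPM, filtered HDM 8121 and 9618, HDM media 8738 and regular media 9980. Both pellets thus stood above all other libraries, and plate 2 stood below the other groups. The place of the HF6 pellet depends on the TMM scaling. By total-count CPM it held 9217, below the HF7 plate 3 (10250), HF7 filtered HDM (9989), unfiltered HDM (10550 and 12170), HDM media (10040) and regular media (10180). The HF7 pellet, at 14720, stayed the highest by total counts. From the top, the group means were 14470 ± 3116 CPM in pellets (SD, n = 2, as for every group here), 9996 ± 519 in unfiltered HDM, 9328 ± 1196 on plate 3, 8870 ± 1059 in filtered HDM, 8265 ± 892 on plate 1 and 5186 ± 1352 on plate 2. The 4 groups between pellets and plate 2 overlapped each with the next.

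miR-148b-3p was scarcer in every library and varied least of the 4 members, between 2125 and 4024 CPM over the 14 libraries. Plates stood at the top of its order, where pellets stood for its paralog. Plate 3 held 3444 (HF6) and 3831 (HF7) CPM, plate 2 held 4024 and 2949, and plate 1 held 3078 and 2887. Unfiltered HDM held 2602 and 3162 CPM, pellets 2472 and 2601, filtered HDM 2780 and 2176, HDM media 2125 and regular media 2245. The pellets did not reach the plates, while HDM overlapped both. Plate 2 overlapped each of the other plates.

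miR-152-3p was the scarce member of the seed family, with 9 to 309 counts per library, and it spread the widest. The pellets held 107 (HF6) and 68.6 (HF7) CPM, from 309 and 19 counts. Plate 1 held 52.5 and 55.5 CPM, plate 2 held 20.96 and 17.8, and plate 3 held 13.8 and 18.7. Unfiltered HDM held 41.2 and 37.3 CPM, filtered HDM 28.9 and 36.5, HDM media 20.8 and regular media 18.4. In order, pellets, plate 1, unfiltered HDM and filtered HDM did not overlap with the next group, while plates 2 and 3, the lowest, overlapped. Plates 2 and 3 were as low as the media libraries, so cells lay both above and below HDM for this miRNA.

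miR-148a-5p, the other arm of the miR-148a hairpin, separated cells from HDM. Unfiltered HDM held 266 (HF6) and 174 (HF7) CPM, filtered HDM 236.5 and 252, HDM media 235 and regular media 217. Pellets held 127 and 75.9 CPM, plate 1 held 90.6 and 76.5, plate 2 held 126.2 and 105, and plate 3 held 103 and 115. The lowest HDM sample lay above the highest of the 8 cell libraries, and both media libraries lay within the HDM range. The 4 cell groups overlapped one another except plate 1, which lay below plates 2 and 3.

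**Figure D1:**
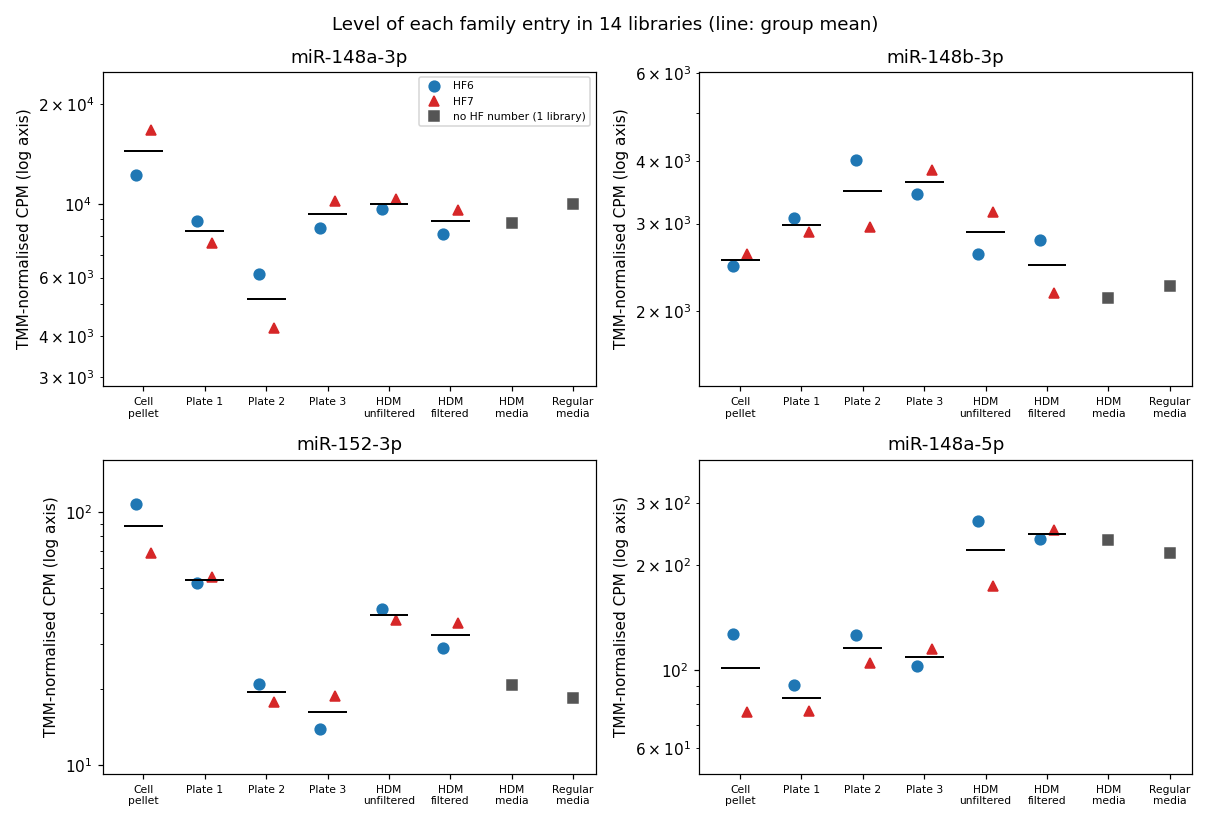
Level of each member in every library, as TMM-normalised CPM on a log axis, by group, with circles for HF6, triangles for HF7, squares for the single media libraries and lines for group means. miR-148a-3p is highest in pellets (14470 CPM) and lowest on plate 2 (5186 CPM), whereas miR-148a-5p is higher in all 4 HDM samples (174 to 266 CPM) than in all 8 cell libraries.

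The remaining arms of these hairpins are miR-148b-5p and miR-152-5p. miR-152-5p had at most 3 counts in any library. miR-148b-5p ran against miR-148a-5p. Pellets held 112.5 (HF6) and 68.6 (HF7) CPM, plate 1 held 70.03 and 76.5, plate 2 held 43.8 and 28.6, and plate 3 held 52.0 and 26.5. Unfiltered HDM held 18.6 and 16.55 CPM, the latter from 4 counts, filtered HDM 12.96 and 12.93, HDM media 14.5 and regular media 15.8. All HDM and media libraries lay below all cell libraries. The ratio of miR-148a-5p to miR-148b-5p counts was 1.13 and 1.105 in the pellets and between 1 and 4.34 on plates. It was 14.3 and 10.5 in unfiltered HDM, 18.3 and 19.5 in filtered HDM, 16.3 in HDM media and 13.7 in regular media. The 5p arms of the paralogous hairpins, with a count ratio of at most 1.29 in pellets and on plate 1, thus differed at least 10.5-fold in counts in HDM and in the media libraries, the lowest ratio resting on 42 and 4 counts. This ratio was looked at after its values were seen and was not tested.

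Ratios within a library, which need no scaling between libraries, were compared between the 4 HDM samples and the 6 plates with exact two-sided permutation tests. The smallest p they can give is 0.00952, and p-values were adjusted over the 3 ratios. Counts of miR-148b-3p per count of miR-148a-3p came to 27.0% and 30.5% in unfiltered HDM and 34.2% and 22.6% in filtered HDM, HF6 before HF7. They came to 34.6% and 37.8% on plate 1, 65.5% and 69.7% on plate 2 and 40.6% and 37.65% on plate 3, so all plates lay above all HDM samples, with 34.6% and 34.2% as the nearest pair. The log2 ratio was lower in HDM by a difference of -0.69, with exact p = 0.00952 and adjusted p = 0.0286. The adjusted p was 0.0714 without any 1 of the HF6 filtered (-0.79), HF7 filtered (-0.59) or HF6 unfiltered (-0.67) samples, and 0.0857 without plate 1 (-0.86). It was 0.0357 without the HF7 unfiltered sample (-0.73) and 0.0476 without any 1 plate library. HDM and plates did not overlap with all libraries in, so leaving some out could not make them overlap. Fewer libraries also raise the smallest p the test can give. These adjusted values thus follow the number of libraries and the p of the other ratios, and do not show whether the separation was weaker or stronger. The pellets were lower still, at 20.2% and 15.6%, and the media libraries lay at 24.3% and 22.5%.

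The miR-148a arm ratio, miR-148a-5p per miR-148a-3p, was 2.77% and 1.68% in unfiltered and 2.91% and 2.62% in filtered HDM. It was 1.02% and 1.001% on plate 1, 2.05% and 2.48% on plate 2, 1.22% and 1.13% on plate 3, and 1.04% and 0.455% in the pellets. Plate 2 overlapped HDM in this ratio, with its low level of miR-148a-3p. The log2 difference between HDM and plates was 0.82 (exact p = 0.0571, adjusted p = 0.0857). It passed the threshold without the HF6 plate 2 (0.93) or the HF7 plate 2 (0.98), with adjusted p = 0.0476 for both in the exact test, and without the HF7 unfiltered sample (0.99, adjusted p = 0.0357). The ratio of miR-152-3p to miR-148a-3p lay between 0.356% and 0.428% in HDM and between 0.163% and 0.726% on plates, which held it on both sides (difference 0.13, exact p = 0.714, also 0.714 after adjustment). Without either plate 3 library that difference turned to -0.09 (HF6 left out) or -0.06 (HF7 left out).

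**Figure D2:**
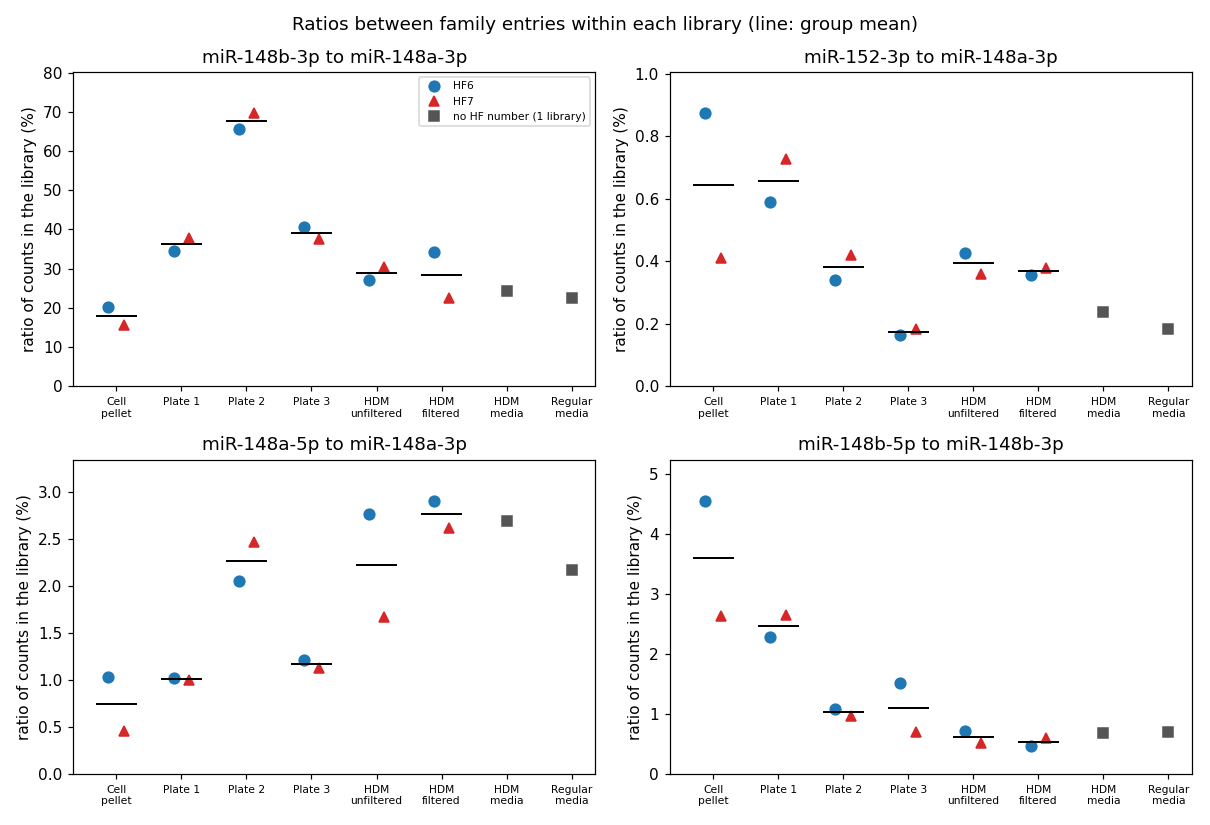
Ratios of counts between family entries within each library, in percent from 0, by group, with symbols and lines as in the plot of levels. The miR-148b-3p to miR-148a-3p ratio is highest on plate 2 (65.5% and 69.7%) and lowest in pellets (20.2% and 15.6%), and from pellets to HDM the miR-148a arm ratio goes up (at most 1.04% against at least 1.68%) as that of miR-148b goes down (at least 2.64% against at most 0.715%).

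Fold changes came from 1 edgeR quasi-likelihood fit of the 12 replicated libraries over 534 miRNAs, and a miRNA counted as called where its p, adjusted by Benjamini-Hochberg over all 534, was below 0.05. Each group of 2 had its own coefficient, so standard errors and p-values come from the spread within groups and leave out that between plates. Comparisons that share pellets, plates or HDM samples are not independent, and their values are given side by side only. Against plate cells (mean of plates 1 to 3, n = 6), HDM (n = 4) was higher in miR-148a-5p, at 232 ± 40.9 CPM against 103 ± 17.6, a log2 fold of 1.21 ± 0.17 (SE, adjusted p = 9.97e-05). This was rank 19 from the top of 534. It was the 1 member called of 4, all tested, where 17.2% of all miRNAs were called higher and 33.1% either way. It was also the 1 member whose HDM and plate libraries did not overlap, where 17.2% of all miRNAs did not. Its log2 fold stayed between 0.96 and 1.37 and its call held under all 22 alternatives, total-count scaling and each left-out library included. miR-148b-5p fell by a log2 fold of 1.59 ± 0.26 (adjusted p = 2.98e-04), between -1.74 and -1.25 over its 22 alternatives.

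The 3p members were not called against plates. miR-148a-3p stood at 0.35 ± 0.14 (adjusted p = 0.0693), miR-148b-3p at -0.33 ± 0.14 (0.0938) and miR-152-3p at 0.47 ± 0.20 (0.0804). With plate 1 left out of the plates, miR-152-3p was called higher in HDM at 1.02 ± 0.23 (edgeR adjusted p = 0.00591, an alternative chosen after seeing the data), plate 1 being the plate that lay above HDM. miR-148a-3p was called without the HF6 plate 2 (0.45, edgeR adjusted p = 0.0418) and with total counts as the only scaling (0.52, edgeR adjusted p = 0.0155). This scaling shifted the median over all 534 from 0.00 to 0.15 and also brought miR-152-3p over the threshold (0.62, edgeR adjusted p = 0.016). Fitting the 10 HDM and plate libraries alone brought all 3 over it, with log2 folds of 0.35 for miR-148a-3p, -0.34 for miR-148b-3p and 0.46 for miR-152-3p. So did leaving out both shallow libraries, also chosen after seeing the data (0.35, -0.38 and 0.51, edgeR adjusted p = 0.0221, 0.0222 and 0.0257). A filter of at least 50 counts in 2 libraries called miR-152-3p (0.46, edgeR adjusted p = 0.0465). With plates grouped by HF number it stood at 0.26 (edgeR adjusted p = 0.743) and no 3p member was called. These settings also differed in the miRNAs called over all. The HDM and plate libraries alone called 229 of 522, the 50-count filter 157 of 340 and plates grouped by HF number 59 of 534. Total counts called 188 of 534, the fit with plate 1 left out 120 of 503 and the main fit 177 of 534.

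Against cell pellets, both HDM fractions were higher in miR-148a-5p and lower in miR-152-3p. In filtered HDM miR-148a-5p averaged 244.5 ± 11.2 CPM against 101.5 ± 36.3 in pellets (n = 2 each), a log2 fold of 1.17 ± 0.29 (edgeR adjusted p = 0.00412). miR-152-3p averaged 32.7 ± 5.42 against 88.0 ± 27.4 CPM, a log2 fold of -1.53 ± 0.29 (edgeR adjusted p = 6.58e-04). miR-148a-3p was lower at -0.71 ± 0.22 (edgeR adjusted p = 0.0188), and miR-148b-3p stood at -0.03 ± 0.22 with libraries that overlapped. So 1 member was called higher and 2 lower, where 20.6% and 20.8% of all miRNAs were, 41.4% in all. The libraries did not overlap for 3 members and for 63.9% of all miRNAs. In unfiltered HDM miR-148a-5p stood at 1.07 ± 0.29 (edgeR adjusted p = 0.0108) and miR-152-3p at -1.22 ± 0.31 (edgeR adjusted p = 0.00739). miR-148a-3p stood at -0.53 ± 0.22 and miR-148b-3p at 0.18 ± 0.22 (edgeR adjusted p = 0.0776 and 0.564). That is 1 called higher and 1 lower, against 16.9% and 16.3% of all miRNAs, 33.1% in all. The libraries did not overlap for any of the 4 members, nor for 53.6% of all miRNAs. For miR-148b-3p this rests on 2602 CPM in the HF6 unfiltered sample against 2601 CPM in the HF7 pellet, the latter from 720 counts. miR-148b-5p, the lowest of the 5 tested entries, stood at -2.90 ± 0.38 in filtered and -2.41 ± 0.41 in unfiltered HDM, ranks 21 and 26 from the bottom of 534.

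Several of these calls changed when 1 library was left out, which leaves 1 library in its group. For the HF6 pellet and the HF6 unfiltered sample, the library that remains is the shallow one. Without the HF6 unfiltered sample the standard error of miR-152-3p in unfiltered HDM was 0.53, against 0.31 with it. Without the HF6 pellet, miR-152-3p lost its call at -0.73 in unfiltered and -1.07 in filtered HDM, and miR-148a-3p gained one in unfiltered HDM at -0.72. Without the HF6 unfiltered sample, miR-148a-5p stood at 0.56 and miR-152-3p at -1.46, neither called. Without the HF6 filtered sample, miR-148a-3p lost its call at -0.42. With plates grouped by HF number, miR-148a-5p (1.1) and miR-152-3p (-1.18) in unfiltered HDM and miR-148a-3p (-0.71) and miR-152-3p (-1.47) in filtered HDM were not called. Fitting only the libraries compared likewise ended the calls of miR-148a-5p (1.13, edgeR adjusted p = 0.095) and miR-152-3p (-1.15, 0.125) in unfiltered HDM and of miR-148a-3p (-0.75, 0.0924) in filtered HDM. The call of miR-148a-5p in filtered HDM held in all 15 alternatives, between 0.90 and 1.7. Scaling by total counts alone shifted the median of all 534 log2 folds, from 0.13 to 0.64 for unfiltered and from 0.14 to 0.56 for filtered HDM. Under it miR-148a-3p was not called in filtered HDM (-0.35), miR-152-3p was not called in unfiltered HDM (-0.72), and miR-148b-3p turned to 0.35 in filtered HDM. In unfiltered HDM it called miR-148b-3p higher (0.66, edgeR adjusted p = 0.0348) and left miR-148a-3p at -0.075. By total-count CPM miR-148a-3p overlapped, at 9217 and 14720 in pellets against 10550 and 12170 in unfiltered HDM.

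As an alternative chosen after seeing the data, the 3 seed-sharing entries were added into 1 before the fit. The log2 fold of this sum was -0.41 ± 0.21 in unfiltered and -0.59 ± 0.21 in filtered HDM against pellets, and 0.16 ± 0.13 in HDM against plates. By total counts the same folds were 0.06, -0.22 and 0.33. The seed family made up between 0.733% and 1.71% of all counts, lowest on the HF7 plate 2 and highest in the HF7 pellet.

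The arms of miR-148a and miR-148b were set beside those of other hairpins. Among 141 hairpins with both arms tested, the log2 fold of the scarcer arm exceeded that of the other arm by a median of 0.04 in HDM against plates, and was the larger in 76 of them. For miR-148a the excess was 0.86, rank 20 from the top, and for miR-148b it was -1.26, rank 134. In filtered HDM against pellets miR-148a stood at 1.88 (rank 22) and miR-148b at -2.87 (rank 138), around a median of 0.11.

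**Figure D3:**
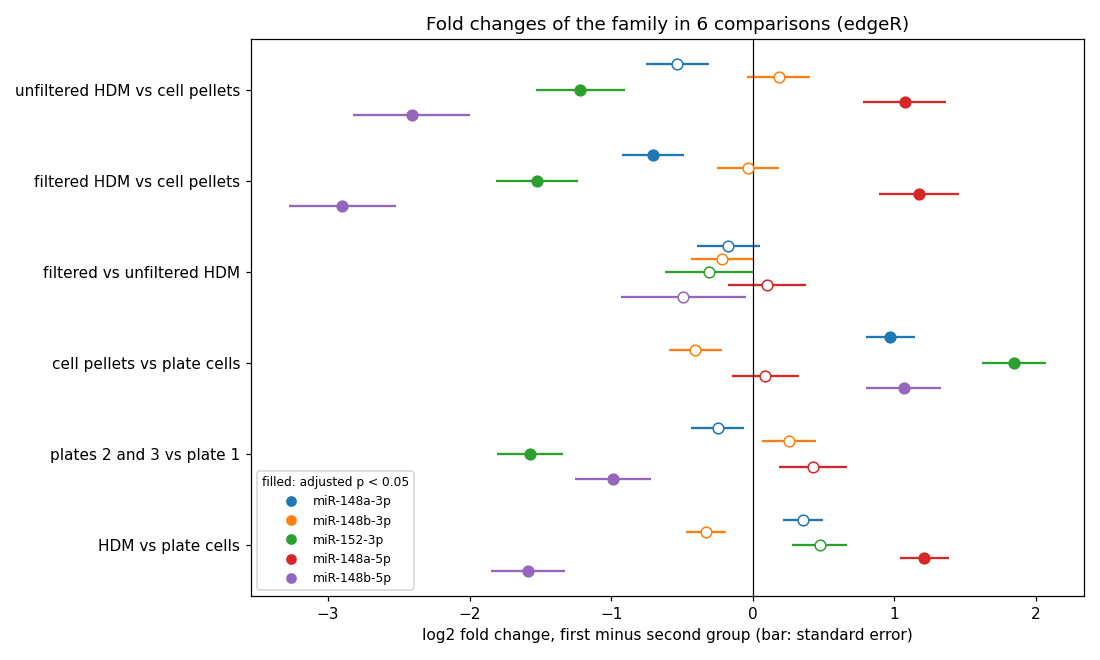
Log2 fold change (first minus second group) with its standard error for the 4 members and miR-148b-5p in 6 comparisons, filled where the adjusted p is under 0.05. miR-148a-5p lies at 1.07 to 1.21 in the 3 comparisons of HDM with cells and miR-148b-5p at -2.90 to -1.59, while no point is filled for filtered against unfiltered HDM.

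Filtration was asked about by comparing filtered with unfiltered HDM, and no member was called. The log2 folds were -0.17 ± 0.22 for miR-148a-3p, -0.22 ± 0.22 for miR-148b-3p, -0.31 ± 0.31 for miR-152-3p and 0.10 ± 0.28 for miR-148a-5p, with edgeR adjusted p of at least 0.980. The libraries did not overlap for 2 members, miR-148a-3p and miR-152-3p, and for 40.3% of all miRNAs. Of all miRNAs 0.562% were called, 3 in number, and 39 had an unadjusted p under 0.05. The 3 are hsa-miR-141-3p (log2 fold -1.47), hsa-miR-146a-5p (-1.57) and hsa-let-7i-3p (-1.91), all lower in filtered HDM and named after their values were seen. At 2 libraries a group, with a standard error near 0.22 for the abundant members, small differences were not detectable.

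Among the cells, pellets were higher than plates in miR-152-3p and miR-148a-3p. miR-152-3p averaged 88.0 ± 27.4 CPM (n = 2) against 29.9 ± 18.8 (n = 6), a log2 fold of 1.84 ± 0.22 (edgeR adjusted p = 1.83e-05), rank 27 from the top of 534. miR-148a-3p averaged 14470 ± 3116 against 7593 ± 2124 CPM, a log2 fold of 0.97 ± 0.17 (edgeR adjusted p = 5.09e-04). These are 2 of 4 members, where 17% of all miRNAs were called higher, 16.3% lower and 33.3% either way. The libraries did not overlap for 3 members and for 32% of all miRNAs. The call of miR-148a-3p held in all 20 alternatives, between 0.73 and 1.16. miR-148b-3p stood at -0.40 ± 0.18 (edgeR adjusted p = 0.101) with pellets below all plates, and was called lower with total counts as the only scaling (-0.67), which shifted the median over all 534 from -0.11 to -0.42. miR-148a-5p stood at 0.09 ± 0.24 (edgeR adjusted p = 0.808), and its sign turned with total counts (-0.22). miR-148b-5p was higher at 1.06 ± 0.27 (edgeR adjusted p = 0.00642), but not without the HF6 pellet (0.56, edgeR adjusted p = 0.387). With the plates grouped by HF number instead of plate number, neither miR-152-3p (1.59 ± 0.50, edgeR adjusted p = 0.0628) nor miR-148b-5p (0.92, edgeR adjusted p = 0.141) was called.

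Between plates, miR-152-3p was lower on plates 2 and 3 than on plate 1. It averaged 17.8 ± 2.98 CPM on plates 2 and 3 (n = 4) against 54.0 ± 2.08 on plate 1 (n = 2), a log2 fold of -1.57 ± 0.24 (edgeR adjusted p = 1.46e-04), rank 29 from the bottom of 534. It was the 1 member called lower of 4, where 14.2% of all miRNAs were, 13.3% were higher and 27.5% were called either way. The libraries did not overlap for 2 members, miR-152-3p and miR-148a-5p, and for 49.6% of all miRNAs. Its call held under all 15 alternatives, between -1.67 and -1.43. miR-148a-3p stood at -0.25 ± 0.19, miR-148b-3p at 0.26 ± 0.19 and miR-148a-5p at 0.43 ± 0.24 (edgeR adjusted p = 0.353, 0.351 and 0.209). miR-148b-5p was lower at -0.99 ± 0.27 (edgeR adjusted p = 0.0124). It lost its call without either plate 1 library (-1.01 without HF6, -0.88 without HF7), without the HF7 plate 2 (-0.87) and without the HF7 plate 3 (-0.71).

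Beside these cell differences, the endothelial marker miR-126-3p ran from 104 and 144.5 CPM in pellets to 80.2 and 105 on plate 1 and 33.3 to 60.1 on plates 2 and 3, and was thus also lowest on plates 2 and 3 among cells. Muscle markers summed to 32.0 and 108.4 CPM in pellets, 18.9 and 22.3 on plate 1 and 6.91 to 14.04 on plates 2 and 3. Leukocyte markers summed to 1748 and 1779 CPM in pellets, 1549 and 1700 on plate 1 and 716 to 1417 on plates 2 and 3. In HDM miR-126-3p was at 11.9 to 27.1 CPM, below the plates, which miR-152-3p was not. The part of any such cells in the miR-152-3p result was not tested.

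**Figure D4:**
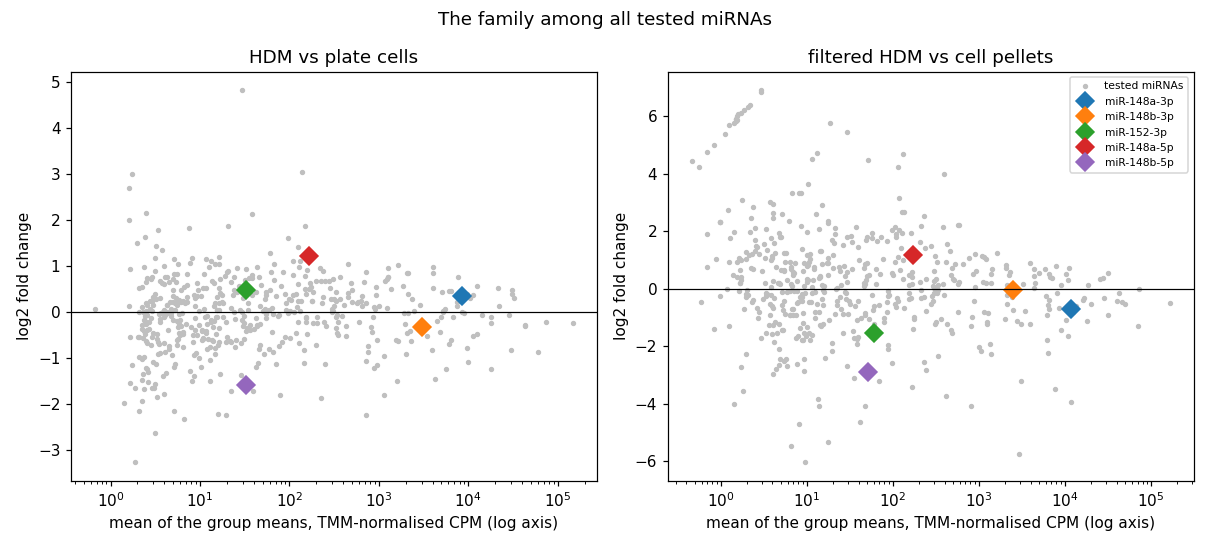
Log2 fold change of all 534 tested miRNAs (grey points) against the mean of the group means (TMM-normalised CPM, log axis) in HDM against plates and filtered HDM against pellets, with the family marked. miR-148a-5p (1.21 and 1.17) and miR-148b-5p (-1.59 and -2.90) lie on opposite sides of 0 in both.

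The single media libraries have no replicate. miR-148a-3p held 1.004% of HDM media counts (exact binomial interval 0.996% to 1.01%) and 1.02% of regular media counts (1.01% to 1.03%). The ratio of HDM to regular media by total counts was 0.986 (0.974 to 0.999) for miR-148a-3p, 1.07 (1.04 to 1.09) for miR-148b-3p, 1.27 (0.959 to 1.69) for miR-152-3p and 1.22 (1.13 to 1.33) for miR-148a-5p. These intervals cover counting error only and compare 2 libraries, not 2 conditions.

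Members were compared with all other miRNAs of at least 100 CPM by the Pearson correlation of log2(CPM + 1) over the 12 replicated libraries, as a description. miR-148a-3p was most like miR-28-3p (0.873), miR-10a-3p (0.832) and miR-26a-5p (0.818). miR-148b-3p was most like miR-374a-3p (0.831), miR-941 (0.746) and miR-4485-3p (0.617). miR-152-3p followed miR-625-3p (0.955), miR-146b-5p (0.918) and miR-1246 (0.897), and miR-148a-5p followed miR-23b-3p (0.939), miR-95-3p (0.895) and let-7b-5p (0.893). No member was among the nearest of another, but miR-152-3p averaged under 100 CPM and so could not be listed for the others. Within the family the coefficient was 0.615 for miR-148a-3p with miR-152-3p, -0.353 for miR-148a-3p with miR-148b-3p, -0.627 for miR-148b-3p with miR-152-3p and 0.001 for the miR-148a arms. The points share libraries, depth and scaling.

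Other miRNAs described as repressing DNA methyltransferases formed a list of 8, of which 6 were tested. The list also holds the endothelial marker miR-126-3p. In unfiltered HDM against pellets 4 were called lower and 0 higher, where 16.3% and 16.9% of all miRNAs were, with a median log2 fold of -0.85 against 0.13 for all miRNAs. miR-185-5p, named after its value was seen, stood at 0.66 there and was not called, with libraries that did not overlap. In filtered HDM 3 were called lower and 1 higher, against 20.8% and 20.6% of all miRNAs (median -0.93 against 0.14), and against plates HDM had 4 called lower and 0 higher, against 15.9% and 17.2% (median -0.59 against 0.00). In pellets against plates 2 were called higher and 0 lower (17% and 16.3% of all miRNAs), and on plates 2 and 3 against plate 1, 2 were called higher and 2 lower (13.3% and 14.2%). None was called between filtered and unfiltered HDM. The most abundant, miR-29a-3p, which targets DNMT3A and DNMT3B, stood at 0.01 ± 0.19 in unfiltered and 0.37 ± 0.19 in filtered HDM against pellets, neither called. miR-101-3p was lower in unfiltered HDM at -0.93 ± 0.29 (edgeR adjusted p = 0.0209) and stood at -0.56 ± 0.28 in filtered HDM.

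The deposited values limit how finely the paralogs can be told apart. miR-148a-3p and miR-148b-3p each held a fraction of a read in 9 of 14 libraries, in 8 of them together, and miR-152-3p in 4, while the 5p arms held none. How many reads were divided between these near-identical entries is not given in the sources used here, so the split between the 3p members is uncertain.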

How the data were processed

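Small RNA libraries of DiFi were made with the NEXTflex kit from miRNeasy RNA, per the labels' protocols. The submitters' processing notes name cutadapt 2.10, Bowtie 1.3.1, FastQC and GRCh38. The miRNA annotation release and the rule behind fractional values are not given in the sources used here. The deposited table holds expected counts per mature miRNA, not normalized, with fractions in 143 of 1619 entries. They were rounded to whole counts. Of 15 samples, 14 have a column, and total counts are given in the results.

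The 12 replicated libraries were fitted in edgeR 4.0.16 (R 4.3.3; quasi-likelihood, filterByExpr, TMM factors over 14 libraries, 1 coefficient per group, 6 residual degrees of freedom, common biological coefficient of variation 0.207). The 534 tested miRNAs hold 99.96% of the counts. Plates were grouped by plate number, because earlier results of these data showed plates to differ by it; the members, lists and tests were likewise chosen with earlier results known. The fit was tested on simulated data. Alternatives used DESeq2 1.42.0, limma 3.58.1 (voom), other scalings and filters, other groupings, a block for HF number and each library left out. Tested log2 ratios had 0.5 added to both counts, and printed percentages and count ratios had nothing added. No 2 replicates were copies of each other (chi-square per degree of freedom 13.3 to 126). Named miRNAs are the members, the other arms of their hairpins, for each member the 3 most correlated miRNAs of at least 100 CPM, and the 2 most abundant of the methyltransferase list. Identity markers, entries sharing seed bases and the 3 miRNAs called between filtered and unfiltered HDM are named besides. Sequences come from the deposited table and RefSeq, and locations were compared with GENCODE release 29.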

Additional observations from a re-analysis of the deposited data

How the results depend on the processing

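Of 330 values of members and miR-148b-5p under alternatives other than leaving out 1 library, 302 kept direction and side of the threshold, 11 lost the call, 12 gained one and 5 changed sign; of 180 with 1 library left out, 163 kept both, 10 lost and 2 gained a call and 5 changed sign. The cause was not tested. The sign changes were of uncalled values. By total counts they were miR-148b-3p in filtered HDM against pellets (0.35) and miR-148a-5p in pellets against plates (-0.22); the latter also changed with no low-count filter (-0.053) and with plate 1 left out (-0.11, chosen after seeing the data). miR-148a-5p in filtered against unfiltered HDM turned to -0.13 without both shallow libraries, also chosen after seeing the data. With 1 library left out, filtered against unfiltered HDM ranged from -0.31 to 0.11 for miR-148a-3p, -0.49 to 0.01 for miR-152-3p (0.0051 without the HF6 filtered sample) and -0.11 to 0.68 for miR-148a-5p. miR-148b-3p in filtered HDM against pellets ranged from -0.057 to 0.117 and miR-148a-5p in pellets against plates from -0.44 to 0.38.

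The number of miRNAs called depended on the groups that supply the spread. Fitting only the libraries compared gave 59 calls for unfiltered HDM against pellets (177 in the fit of all groups), 117 for filtered HDM against pellets (221) and 20 for filtered against unfiltered HDM (3). Grouping plates by HF number gave 65, 102 and 0 for these, 44 for pellets against plates (178) and 59 for HDM against plates (177). Against plates, fitting only the libraries compared gave 229 for HDM and 155 for pellets, and it gave 207 for plates 2 and 3 against plate 1 (147). For filtered against unfiltered HDM, DESeq2 gave 6, no low-count filter 7 and leaving out both shallow libraries 17. Leaving out 1 library gave 69 to 223 calls for unfiltered HDM against pellets, 142 to 261 for filtered HDM against pellets, 0 to 3 for filtered against unfiltered HDM, 124 to 246 for pellets against plates, 63 to 134 for plates 2 and 3 against plate 1 (147) and 86 to 138 for HDM against plates. Total-count scaling changed the split of higher and lower calls from 90 and 87 to 164 and 47 for unfiltered HDM against pellets, from 110 and 111 to 176 and 71 for filtered HDM, from 91 and 87 to 61 and 149 for pellets against plates, from 71 and 76 to 102 and 66 between plates and from 92 and 85 to 128 and 60 for HDM against plates.

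The log2 ratio differences between HDM and plates ranged, with 1 library left out, from -0.79 to -0.57 for miR-148b-3p to miR-148a-3p, from 0.72 to 0.99 for the miR-148a arms and from -0.086 to 0.34 for miR-152-3p to miR-148a-3p. Without plate 1 the first was -0.86 (adjusted p = 0.0857, exact permutation test). Leaving libraries out cannot bring overlap between groups that had none, and fewer libraries raise the smallest p this test can give. Without both shallow libraries the second was 0.99 (adjusted p = 0.0357, exact permutation test). HF numbers 6 and 7 are shared by all groups. HF7 minus HF6 differences correlated between groups at -0.04 to 0.15, of which 3 of 15 were above 0.1, so HF number was not used as a pairing; whether a source is shared was not tested. With HF number as a replicate block the calls were 181, 215, 3, 184, 151 and 177 in the 6 comparisons, in the order unfiltered and filtered HDM against pellets, filtered against unfiltered HDM, pellets against plates, plates 2 and 3 against plate 1 and HDM against plates, and no call of a member changed. Depth limits miR-152-3p and miR-148b-5p most, with 9 and 4 counts in the HF7 unfiltered sample.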
